A study of Mus musculus with 6 samples.

Results

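Toll-like receptors are the pattern recognition receptors that start innate immune responses, and 10 of them (Tlr1, Tlr2, Tlr3, Tlr4, Tlr5, Tlr6, Tlr7, Tlr8, Tlr9 and Tlr13) were followed here by gene symbol among the 47729 genes counted in lung endothelial cells (ECs). All 10 had counts in every library and all 10 passed the filter on low counts, which 14625 genes passed. There were 3 WT libraries and 3 libraries from leene-KO mice. Every mouse was male, 14 weeks old, kept on normal chow and infused with angiotensin II (AngII), the vasoconstrictor peptide that raises blood pressure, at 1000 ng/kg/min by osmotic pump over 2 weeks, so by the labels the groups differed in genotype alone and no library came from a mouse without AngII. In KO mice the region matching the human lncRNA gene LEENE had been deleted with CRISPR-Cas9. The study describes this KO as global, so it was not limited to ECs. The comparison asks how loss of leene altered the EC transcriptome under AngII.

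Each receptor has leucine-rich repeats that bind a microbial or damage-derived ligand and a TIR domain that recruits the adaptors MyD88 or TRIF. Signalling from MyD88 then runs through IRAK and TRAF6 to NF-kappaB and interferon regulatory factors. Tlr1, Tlr2, Tlr4, Tlr5 and Tlr6 act at the cell surface on lipoproteins, lipopolysaccharide and flagellin, whereas Tlr3, Tlr7, Tlr8, Tlr9 and Tlr13 act in endosomes on nucleic acids. Lung ECs are known to respond through Tlr4, while Tlr7 and Tlr9 are best known in B cells and plasmacytoid dendritic cells, and Tlr13 and Tlr8 in myeloid cells.

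The labels name CD31 as the marker of enrichment, whereas the study's methods name CD144. The labels also give cells of 3 mice as pooled in each group, so it is not clear whether the 3 libraries of a group came from separate mice. If they did not, the p-values measure technical spread only. Total counts per library lay between 24464324 and 35184063, and mitochondrial genes took 37.4% to 54.5% of them. EC markers were present in all libraries, with a summed level of 2363 to 4133 CPM (a gene's count relative to its library's total) in WT and 2708 to 4264 CPM in KO. Markers of other cells were present too: alveolar type II genes such as Sftpc (surfactant protein C) summed to 5435, 51784 and 15914 CPM in WT replicates 1 to 3 and to between 40354 and 49572 CPM in KO. The 3 lncRNA genes of the deleted region were not analysed here, so the genotype labels were not checked on the targeted gene. CPM used library sizes scaled by the trimmed mean of M-values (TMM). In bulk RNA, fewer cells of a type and less RNA per cell cannot be told apart.

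Tlr5 and Tlr9 had the largest fold changes of the 10, and the 250 bases before their start sites are shown for that reason, although neither passed the adjusted threshold (RefSeq, GRCm38.p6, plus strand, 5′ to 3′). The Tlr5 window is chr1:182954538-182954787 and the Tlr9 window is chr9:106222348-106222597. Both end at the base before the first annotated exon. Capitals mark matches to a motif.
Tlr5: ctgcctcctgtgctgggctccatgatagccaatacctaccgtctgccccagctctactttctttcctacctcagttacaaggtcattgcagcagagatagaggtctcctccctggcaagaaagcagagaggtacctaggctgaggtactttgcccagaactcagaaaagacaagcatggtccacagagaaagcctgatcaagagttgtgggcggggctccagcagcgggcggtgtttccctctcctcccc
Tlr9: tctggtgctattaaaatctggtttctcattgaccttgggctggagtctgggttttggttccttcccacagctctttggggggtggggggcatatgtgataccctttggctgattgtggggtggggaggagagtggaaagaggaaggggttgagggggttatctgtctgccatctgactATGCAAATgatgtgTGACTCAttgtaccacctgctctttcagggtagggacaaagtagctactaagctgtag

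The 5 motifs were searched on both strands and were chosen after these sequences were seen: the octamer ATGCAAAT, the PU.1 motif GAGGAAGT, the interferon-stimulated response core (GAAA, any 2 bases, GAAA), the AP-1 motif TGACTCA and the kappaB motif (GGG, any 3 bases, TTCC). The Tlr9 window held the octamer, which is known from B cell promoters, 72 bases before the start, and the AP-1 motif 58 bases before it, with no overlap between them. The Tlr5 window held none of them. Of all 32851 RefSeq windows of this length, 1.6% held the octamer, 2.44% the PU.1 motif, 2.98% the interferon-stimulated response core, 4.46% the AP-1 motif and 4.65% the kappaB motif. Windows were found for 8 of the 10 receptors. Outside Tlr9, the kappaB motif was found for Tlr2, Tlr3 and 1 of the windows of Tlr6, the PU.1 motif for Tlr1 and the interferon-stimulated response core for Tlr6. A match describes the letters of the window and not a bound site.

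Tlr1 and Tlr6, which each pair with Tlr2 to bind lipoproteins, lie beside each other on chromosome 5 and share coding sequence. Of all the 50-base windows of their transcripts, 15.3% in Tlr1 and 12.6% in Tlr6 also occurred in another gene. The longest run that was identical in both was 229 bases, at positions 1939 to 2167 of the transcript Tlr1-202 and 1652 to 1880 of Tlr6-201, inside the open reading frame of both. It is shown because reads of 50 bases from it could not be placed uniquely, and only uniquely aligned reads were counted.
Tlr1 and Tlr6: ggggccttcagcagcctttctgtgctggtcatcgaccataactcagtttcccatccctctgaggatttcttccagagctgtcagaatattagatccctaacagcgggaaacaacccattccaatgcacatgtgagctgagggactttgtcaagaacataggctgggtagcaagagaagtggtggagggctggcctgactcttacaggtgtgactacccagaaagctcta

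The counts of Tlr1 and Tlr6 therefore miss reads from such stretches. In Tlr3, 1.56% of windows also occurred in Gm45542, which overlaps it on the other strand. No window of the other 7 receptors was shared.

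Tlr3, the endosomal sensor of double-stranded RNA, had the highest level per length, at 3.58 RPKM (CPM per kilobase of exon) over the 6 libraries. It was followed by Tlr2 (2.07 RPKM), Tlr4 (1.48 RPKM), Tlr5 (1.14 RPKM), Tlr7 (0.939 RPKM), Tlr9 (0.801 RPKM), Tlr13 (0.698 RPKM), Tlr8 (0.616 RPKM), Tlr1 (0.277 RPKM) and Tlr6 (0.195 RPKM). The order differed between the groups. In WT, Tlr5 (0.510 ± 0.261 RPKM, SD, n = 3) stood below Tlr7 (0.631 ± 0.362 RPKM), and Tlr9 (0.386 ± 0.232 RPKM) below Tlr13 (0.466 ± 0.239 RPKM) and Tlr8 (0.436 ± 0.255 RPKM). In KO, Tlr5 (1.76 ± 0.834 RPKM, SD, n = 3) stood above Tlr4 (1.71 ± 0.361 RPKM). Each of these gaps was smaller than the SDs. Neighbours in the order over all libraries mostly lay within the spread between libraries. Only Tlr8 stood above the next receptor, Tlr1, in all 6 libraries, whereas Tlr5 stood above Tlr7 in 2 of 6. The endosomal receptors made up 47.9% to 60.0% of the summed RPKM of the 10 in WT and 50.7% to 62.4% in KO.

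None of the 10 receptors passed an adjusted p of 0.05 in edgeR's quasi-likelihood test, where 0.109% of all genes tested did (16 of 14625). At an unadjusted p under 0.05, 3 of 10 (Tlr3, Tlr5 and Tlr9) were higher in KO and 0 were lower, against 5.62% and 4.68% of all genes. In the same 3 receptors every KO library lay above every WT library, which held for 8.59% of all genes, and no receptor had every KO library below every WT library, which held for 9.2% of all genes. All 10 log2 fold changes were above 0, as were 54.1% of all genes, with a median of 0.78 for the receptors and 0.03 for all genes. The sign of Tlr2 turned when libraries were scaled by total counts. Scaling by total counts moved the median of all genes by -0.17, and relative to that median Tlr2 stood at 0.06.

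**Figure D1:**
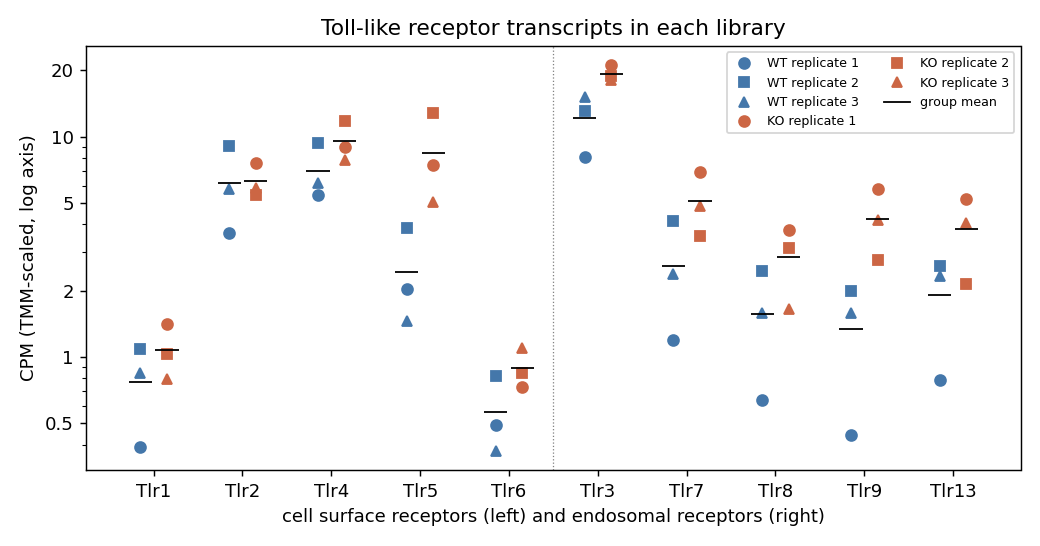
TMM-scaled CPM of each receptor (log axis) in the 3 WT (blue) and 3 KO (orange) libraries, with marker shapes for the replicate and lines for the group means. The KO libraries of Tlr3, Tlr5 and Tlr9 lay above all WT libraries, and WT replicate 1 was the lowest of the 6 libraries for 8 receptors.

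Tlr5, the receptor for bacterial flagellin, had the largest fold change. Its gene is ENSMUSG00000079164 (GRCm38 chromosome 1, 182954788 to 182976044, plus strand). It was at 2.03, 3.85 and 1.45 CPM in WT replicates 1 to 3 and at 7.44, 12.8 and 5.04 CPM in KO. The groups did not overlap, and KO replicate 2 was the highest library. The log2 fold change was 1.77 ± 0.45 (SE, n = 3 per group), a 3.41-fold difference. The adjusted p was 0.287 in edgeR, and the unadjusted p was 0.00451. The call depended on the tool: with DESeq2, the tool that the study's methods name, the adjusted p of Tlr5 was 0.0126, and it was 0.0134 or 0.0146 with other sets of genes given to DESeq2. It also passed with total-count scaling (adjusted p = 0.00103, edgeR), with no filter (0.00499) and without WT replicate 2 (0.0354), and with each other library left out it did not.

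Tlr9, the endosomal receptor for unmethylated CpG DNA (ENSMUSG00000045322, chromosome 9 of GRCm38, 106222598 to 106226883, plus strand), was at 0.441, 2.00 and 1.59 CPM in WT and 5.76, 2.76 and 4.17 CPM in KO. The groups did not overlap, although KO replicate 2 was close to WT replicate 2. The log2 fold change was 1.67 ± 0.54 (SE, n = 3 per group), for which edgeR gave an adjusted p = 0.385. The unadjusted p was 0.0150. WT replicate 1 had 18 counts (95% exact Poisson interval 10.7 to 28.5, for counting error only), and without that library the log2 fold change was 1.22. Tlr9 passed the adjusted threshold only with total-count scaling (adjusted p = 0.0173, edgeR), among the alternatives run.

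Tlr3 (ENSMUSG00000031639, chromosome 8 of GRCm38, 45395665 to 45410608, minus strand) was at 8.05, 13.1 and 15.2 CPM in WT and 21.1, 18.9 and 18.1 CPM in KO. All KO libraries lay above the WT ones, and the KO libraries were the closer together. The log2 fold change was 0.68 ± 0.23 (SE, n = 3 per group), for which edgeR gave an adjusted p = 0.402. The unadjusted p was 0.0190. The log2 fold change lay between 0.45 and 0.86 with each library left out.

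Tlr7 and Tlr8, which sense single-stranded RNA and lie near each other on chromosome X, both overlapped between groups. Tlr7 was at 1.20, 4.14 and 2.39 CPM in WT and 6.92, 3.53 and 4.83 CPM in KO, and its log2 fold change was 0.98 ± 0.45 (edgeR, adjusted p = 0.504, n = 3 per group). Tlr8 was at 0.637, 2.47 and 1.59 CPM in WT and 3.78, 3.13 and 1.66 CPM in KO, with 0.87 ± 0.52 (edgeR, adjusted p = 0.583, n = 3 per group). In both, WT replicate 1 was lowest and KO replicate 1 highest. Tlr13, a mouse receptor for bacterial ribosomal RNA, was at 0.783, 2.58 and 2.34 CPM in WT and 5.20, 2.13 and 4.07 CPM in KO. Its KO replicate 2 lay inside the WT range, and the log2 fold change was 1.01 ± 0.50 (edgeR, adjusted p = 0.524, n = 3 per group).

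Of the remaining surface receptors, Tlr2 had the smallest difference. It was at 3.65, 9.04 and 5.76 CPM in WT and 7.61, 5.44 and 5.86 CPM in KO, with WT replicate 2 the highest library and WT replicate 1 the lowest. The log2 fold change was 0.04 ± 0.33 (edgeR, adjusted p = 0.977, n = 3 per group). Tlr4, the receptor for lipopolysaccharide, was at 5.41, 9.34 and 6.13 CPM in WT and 8.98, 11.7 and 7.83 CPM in KO, and its log2 fold change was 0.45 ± 0.25 (edgeR, adjusted p = 0.568, n = 3 per group). Only WT replicate 2 reached into the KO range.

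Tlr1 and Tlr6 were near 1 CPM. Tlr1 had 16, 37 and 18 reads counted in WT and 33, 28 and 23 in KO, with overlapping groups, with a log2 fold change of 0.49 ± 0.49 (edgeR, adjusted p = 0.725, n = 3 per group). Tlr6 had 20, 28 and 8 reads in WT, against 17, 23 and 32 in KO, also overlapping, and a log2 fold change of 0.65 ± 0.45 (edgeR, adjusted p = 0.628, n = 3 per group). For groups of this size the smallest p of an exact permutation test is 0.1.

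**Figure D2:**
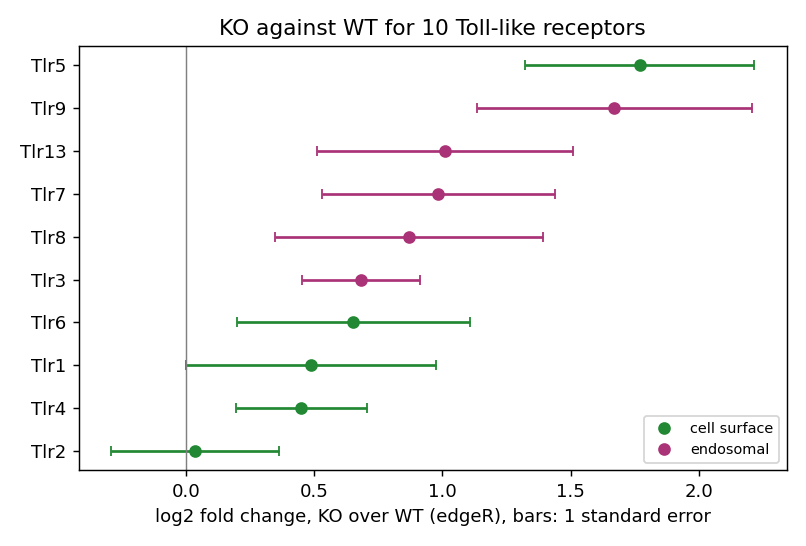
Fold changes of KO over WT on a log2 scale with 1 standard error derived from edgeR's F statistic, for surface (green) and endosomal (purple) receptors. Tlr5 (1.77) and Tlr9 (1.67) lay farthest from 0 and Tlr2 (0.04) nearest.

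**Figure D3:**
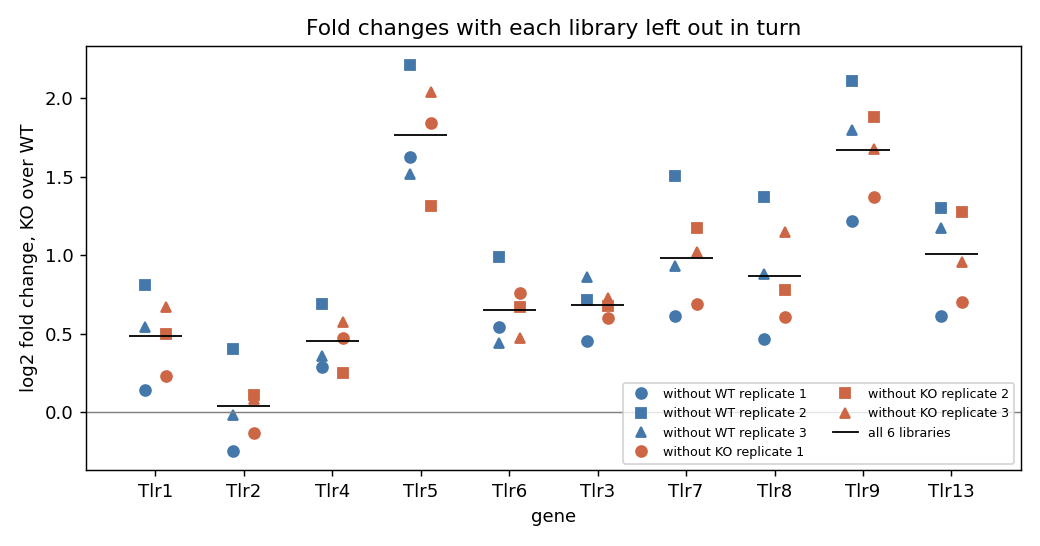
Fold changes on a log2 scale with each of the 6 libraries left out in turn (points) and with all 6 (lines). WT replicate 2 gave the highest value when left out for every receptor but Tlr3, and Tlr2 is the receptor whose values fell on both sides of 0.

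The receptors shared a pattern over the libraries. WT replicate 1 was the lowest of the 6 libraries for 8 of the 10 receptors and WT replicate 3 for the other 2, whereas KO replicate 1 was the highest for 6. The low WT replicate 1 was not particular to the receptors. It was also lowest for the mean of every marker list but that of platelets. In log2 CPM minus the mean of the 6 libraries it stood at -0.55 for EC markers and -2.29 for alveolar type II markers. Its TMM factor was 1.37, against 0.87 to 1.04 in the other libraries. The share of all genes lowest in it was not counted. The summed RPKM of the 10 receptors was 5.48, 11.9 and 9.18 in WT and 16.8, 14.5 and 12.9 in KO. The 12 EC markers had none called and a median log2 fold change of 0.15. All 12 were above 0, as were 54.1% of all genes. At an unadjusted p under 0.05 (edgeR), 1 was higher and 0 lower, against 5.62% and 4.68% of all genes. Markers of other cells also differed between the libraries. Of the 13 B cell markers, 3 were called, all higher in KO, against 0.109% of all genes. All 13 log2 fold changes were above 0, as were 54.1% of all genes (median 2.30), down to 0.42 for Bank1, whose groups overlapped. In 12 of the 13 every KO library lay above every WT library, against 8.59% of all genes. The B cell markers summed to 17.97 to 39.3 CPM in WT and 129.5 to 141.1 CPM in KO. That list had been seen to differ in these libraries before and is no independent evidence. The 9 T cell markers tested had a median of 1.04, with none called, and summed to 3.16 to 7.25 CPM in WT and 8.61 to 14.7 CPM in KO. All 9 were above 0, as were 54.1% of all genes. At an unadjusted p under 0.05 (edgeR), 4 were higher and 0 lower, against 5.62% and 4.68% of all genes. In 4 of the 9 every KO library lay above every WT library, against 8.59% of all genes. The 6 platelet markers had none called, 4 higher and 0 lower at an unadjusted p under 0.05 and a median of 0.78, and summed to 28.7 to 43.0 CPM in WT and 39.3 to 77.6 CPM in KO. The alveolar type II list, with none called, had a median of 0.77. The 6 airway epithelium markers, also with none called, had a median of 0.60 and sums of 15748 to 41856 CPM against 34542 to 58128 CPM. Of the 8 monocyte markers none was called and 6 were above 0 (median 0.36). Their sums of 93.1 to 177.1 CPM in WT and 126.8 to 159.5 CPM in KO were carried mostly by Fn1. The list was mixed, with 2 higher and 1 lower at an unadjusted p under 0.05 (edgeR). In Ccr2 (0.88) and Cx3cr1 (1.16), both chemokine receptors, every KO library lay above every WT library. In Nr4a1 (-1.23) every KO library lay below every WT library. Of the 8 dendritic cell markers tested none was called and 7 were above 0 (median 0.54). Their sums of 36.9 to 51.0 CPM and 37.0 to 52.3 CPM were carried mostly by Zbtb46 (-0.12), the only tested gene of the list below 0. The sums therefore say little of the other dendritic cell markers. Xcr1, a chemokine receptor of conventional dendritic cells, stood at 1.49 (edgeR, adjusted p = 0.398, n = 3 per group). It had few counts: 7, 14 and 9 in WT and 22, 28 and 23 in KO. Every KO library lay above every WT library in Xcr1, which held for 8.59% of all genes. The groups of every other dendritic cell marker tested overlapped. Ccr2, Cx3cr1, Xcr1 and Bank1 were named after their values were seen. Macrophage markers had none called, a median of 0.28 and sums of 168.9 to 434.4 CPM and 241.5 to 525.1 CPM. Neutrophil markers had none called, a median of -0.12 and sums of 32.3 to 93.6 CPM and 59.1 to 67.7 CPM, and mesenchyme markers none called, a median of 0.21 and sums of 295.9 to 581.1 CPM and 428.9 to 598.1 CPM. No marker was at 0 in every library, and Ly6g, of the neutrophil list, was at 0 in some. The part of these cells in the receptor levels was not tested.

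**Figure D4:**
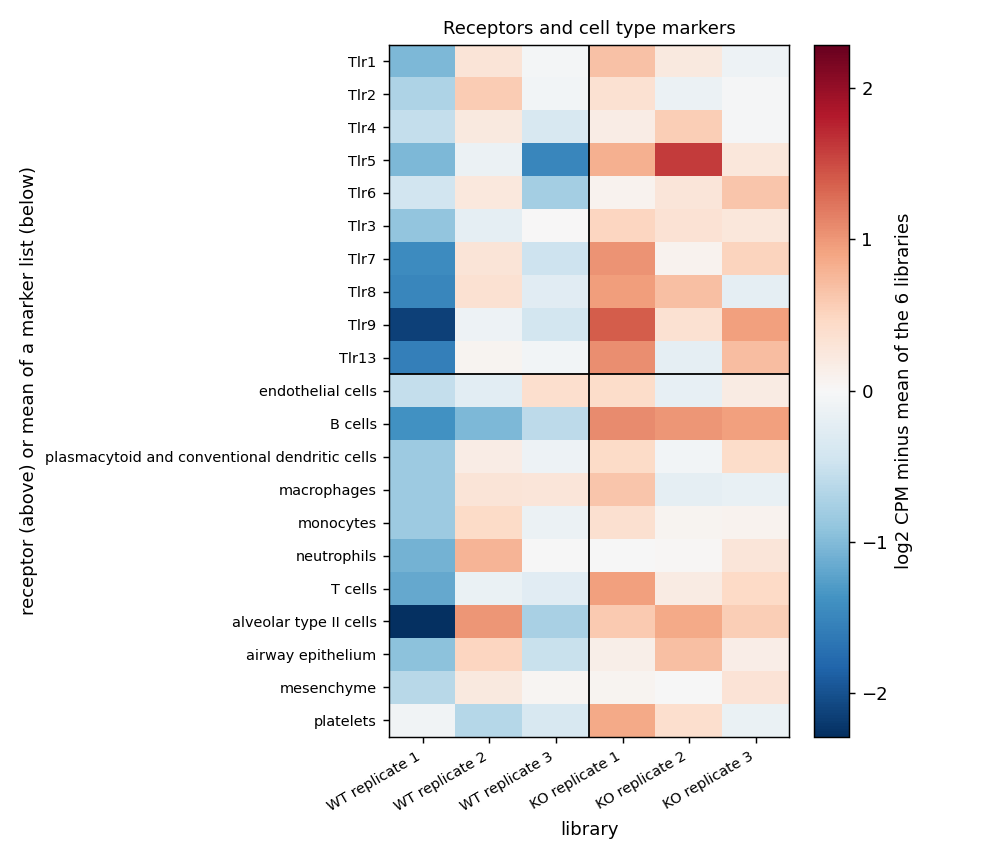
Log2 CPM minus the mean of the 6 libraries, for each receptor (above the line) and for the mean of each marker list (below it), with WT libraries left and KO libraries right. Tlr9 was lowest in WT replicate 1 (-2.13) and highest in KO replicate 1 (1.39), and the B cell list was below 0 in all WT and above 0 in all KO libraries.

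The genes most like each receptor over the 6 libraries were taken from the 190 list genes compared, by the root mean square difference of centred log2 CPM. The nearest gene was Cd180, of the coreceptors and ligand carriers, for Tlr9 (0.22). It was Il7r, the interleukin 7 receptor of lymphocytes, for Tlr7 (0.11) and Trbc2, a T cell receptor chain, for Tlr13 (0.20). It was Cd40 for Tlr3 (0.14), Ctss, a lysosomal protease, for Tlr1 (0.15), Fn1, fibronectin, for Tlr2 (0.15), Scgb3a2, a secretoglobin of airway cells, for Tlr4 (0.13), Pdgfra for Tlr6 (0.16) and Lgmn, another lysosomal protease, for Tlr8 (0.28). Tlr5 had no near neighbour: the nearest, Pax5 of B cells, was at 0.53, and Cyp2f2 of the airway epithelium was almost level with it at 0.54. All these distances come from the same 6 libraries, which differ in depth and in the markers of other cells.

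Among the 103 genes listed for the pathway around the receptors, 94 were tested and 1 was called, 0 higher and 1 lower. At an unadjusted p under 0.05, 4 of 94 were higher and 10 lower, against 5.62% and 4.68% of all genes (0.109% called), and the median log2 fold change was -0.04. The other mouse receptors were Tlr12, at 0.465, 1.15 and 0.562 CPM in WT and 1.93, 1.77 and 2.52 CPM in KO (log2 fold change 1.51 ± 0.43, edgeR, adjusted p = 0.341, n = 3 per group), and Tlr11, at 0 CPM in KO replicate 2 and at most 0.793 CPM elsewhere. Tlr12 passed without WT replicate 2 (adjusted p = 0.0393, edgeR) and with DESeq2 on the genes edgeR tested (0.0470), but not with DESeq2 on all genes (0.107).

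None of the 8 coreceptors and ligand carriers was called, against 0.109% of all genes. All 8 log2 fold changes were above 0 (median 0.63), as were 54.1% of all genes (median 0.03). Cd180, which with Ly86 modulates Tlr4 responses in B cells, stood at 1.08, 3.64 and 2.62 CPM in WT and 8.21, 5.74 and 7.90 CPM in KO (1.58 ± 0.41, edgeR, adjusted p = 0.299, n = 3 per group). It passed with DESeq2 (adjusted p = 0.0220). Ly86 had a log2 fold change of 0.64, and Cd36, a scavenger receptor with the highest level per length in this list, 0.66. The 12 trafficking and processing genes held none called and 9 above 0 (median 0.42), against the same shares of all genes. They include Unc93b1, the chaperone of the endosomal receptors (0.41), Ctsl, a protease that cleaves them (0.72), and Hsp90b1, a folding chaperone (0.20). Cnpy3, another chaperone, stood at 0.48.

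Genes downstream of the receptors had lower medians. The 5 adaptors tested had none called, 1 above 0 (54.1% of all genes were) and a median of -0.33. Myd88, at 21.9, 26.5 and 20.7 CPM in WT and 18.4, 18.5 and 18.2 CPM in KO, had every KO library below every WT library (-0.33 ± 0.14, edgeR, adjusted p = 0.477, n = 3 per group), and Ticam1, which encodes TRIF, stood at -0.39. None of the 16 kinases and ubiquitin ligases was called (median -0.04). Tab3, a TAK1 partner, stood at 0.42, Ikbke, a kinase of the interferon branch, at 0.68, and Tab2, the most abundant per length, at -0.06. None of the 11 transcription factors was called (median -0.06). Nfkb2 stood at -0.27 and Jun at -0.34.

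The 14 negative regulators had none called, with 0 higher and 4 lower at an unadjusted p under 0.05, against 5.62% and 4.68% of all genes (median -0.17). Atf3, which represses inflammatory genes after receptor signalling, was at 11.5, 14.0 and 14.6 CPM in WT and 4.90, 2.32 and 3.52 CPM in KO (-1.90 ± 0.27, edgeR, adjusted p = 0.0720, n = 3 per group). With DESeq2 its adjusted p was 1.08e-07. Nfkbia, the inhibitor of NF-kappaB, was at 123.9, 93.5 and 142.9 CPM in WT and 68.8, 57.5 and 77.7 CPM in KO (-0.82 ± 0.20, edgeR, adjusted p = 0.283, n = 3 per group), and passed with DESeq2 (adjusted p = 0.0230). In both genes the groups did not overlap.

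The called gene lay among the 11 endogenous ligands (median -0.43). Hspa1b, an inducible heat shock protein, fell from 14.2, 22.2 and 19.9 CPM in WT to 1.29, 2.61 and 1.52 CPM in KO (-3.37 ± 0.31, edgeR, adjusted p = 0.0188, n = 3 per group). It is nearly identical to Hspa1a (-2.64, adjusted p = 0.0524, edgeR), so their shares of reads are uncertain. The call was lost when any 1 KO library was left out (adjusted p = 0.0547 to 0.165, edgeR). Bgn, biglycan, the most abundant ligand per length, stood at 0.10.

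Of the 23 genes that receptor signalling is known to induce, 15 were tested and none was called (median 0.03). Cd40 stood at 0.75, with every KO library above every WT library, and Sele, E-selectin, at -1.25, with every KO library below. Icam1, the most abundant per length, was at 74.2, 402.6 and 188.3 CPM in WT and 279.8, 261.7 and 232.6 CPM in KO, with WT replicates 1 and 2 at the ends of the range. Ifnb1 had no count in any library.

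**Figure D5:**
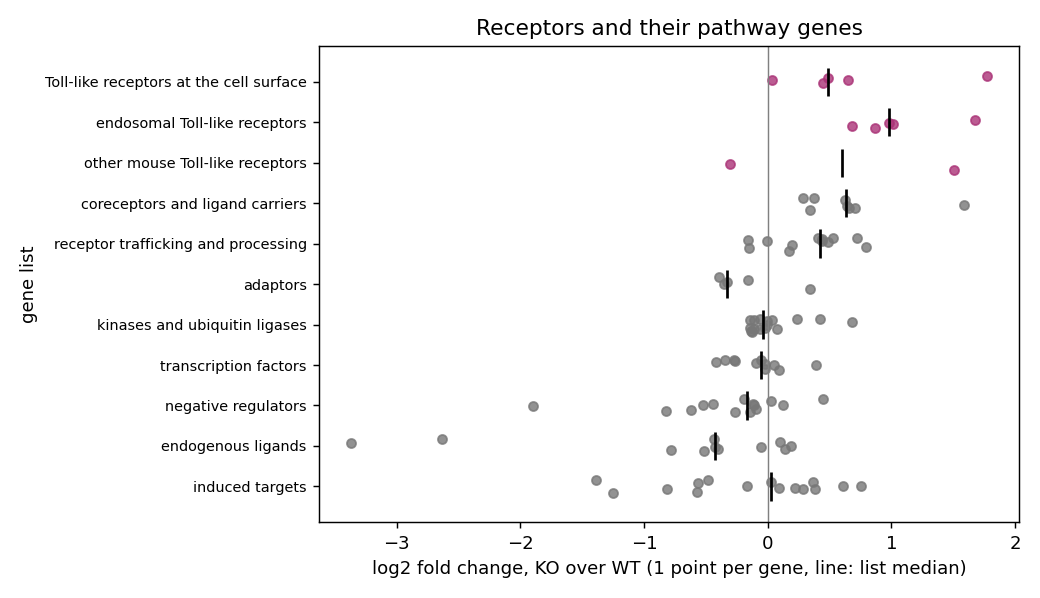
Fold changes of KO over WT on a log2 scale for the tested genes of each list, with 1 point per gene and a line at the list median. The receptor lists (purple) lay mostly above 0, with medians of 0.49 at the surface and 0.98 in endosomes, and Hspa1b (-3.37) and Hspa1a (-2.64) lay farthest below 0.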

How the data were processed

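RNA was measured by polyA-enriched, strand-specific RNA-seq in 6 libraries of lung ECs. The authors deposited raw counts per gene, 1 table per library. Per the file headers, these came from featureCounts 2.0.0 on uniquely aligned reads, over exons in the reverse orientation, with the Ensembl annotation of GRCm38. The submitters' processing notes name bcl2fastq 2.18, STAR 2.5.4b and Subread 2.0.0. Groups and replicate numbers came from the sample titles.

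The counts were tested with edgeR 4.0.16 in R 4.3.3 (filterByExpr, TMM scaling, quasi-likelihood test, Benjamini-Hochberg adjustment over all 14625 genes, threshold 0.05). CPM used TMM-scaled totals and RPKM the exon length of the files. The SE given with an edgeR log2 fold change was the absolute fold change divided by the square root of the test's F statistic. Symbols came from GENCODE vM21 (47224 of 47729 genes). Alternatives were DESeq2 1.42.0, limma-voom (limma 3.58.1), other edgeR options, scalings and filters, a replicate block and each library left out. DESeq2 with default settings was given every gene. It had first been run on the genes edgeR tested and then on genes with any count. The input with all genes was settled on after its count of calls was seen to equal that of an earlier re-analysis of these files. All 3 inputs are therefore given, and none gave the number of genes that the study reported.

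All 10 receptors were named, with each pathway list's called genes (or the 2 with the smallest p) and its highest per length. Unc93b1, Hspa1a, Bank1, Ccr2, Cx3cr1 and Xcr1 were added after their values were seen. The members and lists were chosen with earlier results of these data known. The fit was also run on simulated counts with the same relative spread for every gene and no differences in cell content. That run checked the code only and says nothing of error rates in these libraries. Every pair of libraries differed beyond sampling noise (a chi-square of at least 40.4 per degree of freedom).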

Additional observations from a re-analysis of the deposited data

How the results depend on the processing

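Of the 10 receptors, 0 passed the adjusted threshold with edgeR. DESeq2 called 1 (Tlr5), as it did with genes with any count and with the genes edgeR tested, total-count scaling called 2 (Tlr5 and Tlr9), no filter 1 (Tlr5), and leaving out 1 library 0 to 1. At an unadjusted p under 0.05 there were 3, with 5 by DESeq2 (5 and 4 with its other inputs), 6 with no filter, and 1 to 7 with 1 library left out. Over all genes, 1506 were under that p with edgeR, 1696 with DESeq2 (1696 and 1718 with its other inputs) and 2293 with no filter. With 1 library left out there were 986 to 3188. Both the 7 receptors and the 3188 genes came without WT replicate 2. Groups did not overlap for 3 receptors, and for 3 to 7 with 1 library left out. Leaving out a library can hardly make separate groups overlap, so the lower end of 3 was nearly fixed in advance. With all 6 libraries, 8.59% of all genes had every KO library above every WT library and 9.2% below. The share of all genes with 1 library left out was not counted, so the 7 has no background. Calls over all genes numbered 16, against 187 with DESeq2 on every gene, 185 on genes with any count, 300 on the genes edgeR tested, 26 with limma-voom, 26 with RLE scaling, 31 with upper-quartile scaling, 123 with total counts, 152 with no filter and 0 to 791 with 1 library left out. The 791 came without WT replicate 2, and leaving out any KO library gave 0. Of the pathway genes, 1 was called, against 5 (DESeq2; 5 and 7 with its other inputs), 2 (RLE), 3 (upper quartile), 5 (total counts), 4 (no filter) and 0 to 10 with 1 library left out. Of the marker genes, 3 were called, against 10 (DESeq2; 10 and 12 with its other inputs), 5 (limma-voom), 5 (upper quartile), 10 (total counts), 10 (no filter) and 0 to 16. The log2 fold change of Tlr2 turned to -0.073 with total counts and lay between -0.25 and 0.40 with 1 library left out (-0.25 without WT replicate 1, -0.016 without WT replicate 3, -0.13 without KO replicate 1). That of Tlr11 lay between -0.86 and 0.60 with 1 library left out (0.60 without WT replicate 2, 0.27 without KO replicate 2). With the replicate number as a block, 0 genes were called over all genes, 0 pathway genes and 0 marker genes. Deviations of same-numbered libraries correlated at -0.08, 0.22 and 0.01, so the numbers were not taken to pair them. The cause of these shifts was not tested. Tlr6 was not tested with at least 10 counts in every library, having 8 counts in WT replicate 3.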
